A study of Mus musculus with 57 samples.

Results

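SOX2 occupied 17262 reproducible regions in undifferentiated mouse embryonic stem (ES) cells, and 1975 of them (11.4%) overlapped neither a NANOG peak at 0 h nor a GATA6 peak at 2 h of induction. These 1975 regions, called members here, were selected on the peak lists themselves. Overlapping peaks of the 2 SOX2 0 h lists were merged into 40821 regions, and the 17262 that held a peak of both lists were kept. Regions that shared 1 bp or more with any peak of the 2 NANOG 0 h or the 2 GATA6 2 h lists were then removed. The other 15287 SOX2 regions comprised 1001 with NANOG 0 h only (5.8%), 5507 with GATA6 2 h only (31.9%) and 8779 with both (50.9%). Presence of SOX2 at 0 h and absence of NANOG at 0 h and of GATA6 at 2 h are therefore given by the choice of members and are no result.

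The cells were of the KH2 line, labelled C57BL/6, and carried TRE:GATA6-DSREd2, a transgene in single copy from which doxycycline switches on FLAG-tagged GATA6 and the red marker DsRed2 through a bidirectional promoter. All groups carried this transgene. At 0 h cells received no doxycycline and grew in 2i medium with LIF, and for later times they were moved to serum medium with LIF and 1 ug/mL doxycycline for up to 12 h, then kept in serum medium without it until 24 or 48 h. Later times therefore differ from 0 h both in medium and in GATA6, whose effects cannot be told apart. Binding was mapped by CUT&RUN, in which an antibody directs a nuclease to the sites of a protein and the released DNA is sequenced, on 100000 cells per replicate. The analysis used 30 peak lists, 2 in each of 15 groups: SOX2 and NANOG at 0, 2, 4 and 8 h, GATA6 at 0, 2, 4, 8 and 48 h, and SOX17 and GATA4 at 24 h. The labels give 2 replicates per group and do not say whether they came from separate cultures. The study states in general terms that its replicates were done independently. The p-values measure the spread between these lists, part of which may be technical. Tests between classes of regions pool lists of several times, or of SOX17 and GATA4. Their SD and p-value therefore include differences between times or factors, and do not measure the spread of replicates alone.

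SOX2 is a high-mobility-group factor that, with OCT4, occupies composite SOX and octamer elements of pluripotency genes in ES cells and the epiblast (Epi). NANOG binds many of the same cis-regulatory elements (CREs). GATA6 drives the primitive endoderm (PrE) fate and opens chromatin at GATA sites, and the PrE factors GATA4 and SOX17 act after it. SOX17 belongs to the same family as SOX2 and recognises a similar core.

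The sequences of 7 members are given first, since they show how the members differ among themselves: the strongest SOX2 region (Slc44a5), a strong region with clustered SOX cores (Sox13), a strong region without one (Dmrtb1), a pair with repeated stretches that held a SOX2 peak in every later list (Zfp217 and Crybg1), and members near a pluripotency gene (Sall4) and an epiblast gene (Fgf8). Each is the plus strand of GRCm38 (mm10), 201 bp centred on the SOX2 0 h summit. Regions are named by the nearest protein-coding transcription start site (TSS). Capitals mark matches on either strand to the SOX core (ACAATG or ACAAAG), the octamer (ATGCAAA) or a GATA site (AGATA or TGATA followed by a purine).
Slc44a5, chr3:154072050-154072250: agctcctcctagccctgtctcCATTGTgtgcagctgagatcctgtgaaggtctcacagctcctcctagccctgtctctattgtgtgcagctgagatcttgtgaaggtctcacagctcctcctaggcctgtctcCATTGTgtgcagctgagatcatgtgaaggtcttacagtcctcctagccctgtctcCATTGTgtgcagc
Sox13, chr1:133411739-133411939: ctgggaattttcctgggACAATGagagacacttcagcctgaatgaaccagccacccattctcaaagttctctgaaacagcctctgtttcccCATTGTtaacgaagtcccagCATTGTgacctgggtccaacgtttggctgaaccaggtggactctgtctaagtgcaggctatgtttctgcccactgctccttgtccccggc
Dmrtb1, chr4:107733928-107734128: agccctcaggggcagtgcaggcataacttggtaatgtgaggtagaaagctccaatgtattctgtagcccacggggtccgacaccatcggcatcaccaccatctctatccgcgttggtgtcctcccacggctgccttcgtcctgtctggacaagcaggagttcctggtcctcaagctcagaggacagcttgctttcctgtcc
Zfp217, chr2:170257913-170258113: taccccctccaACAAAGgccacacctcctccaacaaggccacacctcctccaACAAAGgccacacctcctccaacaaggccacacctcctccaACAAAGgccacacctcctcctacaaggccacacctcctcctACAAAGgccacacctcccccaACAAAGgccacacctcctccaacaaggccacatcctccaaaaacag
Crybg1, chr10:43993356-43993556: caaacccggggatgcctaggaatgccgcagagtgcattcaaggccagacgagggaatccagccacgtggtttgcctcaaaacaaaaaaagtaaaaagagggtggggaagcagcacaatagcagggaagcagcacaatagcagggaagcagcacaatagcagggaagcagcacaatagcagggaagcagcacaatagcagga
Sall4, chr2:168791250-168791450: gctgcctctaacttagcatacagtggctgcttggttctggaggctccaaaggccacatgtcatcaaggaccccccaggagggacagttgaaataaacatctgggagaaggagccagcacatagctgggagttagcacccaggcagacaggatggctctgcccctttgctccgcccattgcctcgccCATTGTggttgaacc
Fgf8, chr19:45731735-45731935: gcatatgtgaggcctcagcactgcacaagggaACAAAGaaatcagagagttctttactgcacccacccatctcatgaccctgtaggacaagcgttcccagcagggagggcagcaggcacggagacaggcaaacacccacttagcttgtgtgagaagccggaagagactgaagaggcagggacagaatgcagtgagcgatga
The Slc44a5 and Sox13 windows held 3 SOX cores each. In the Slc44a5 window the cores lay in a repeat, with a 12-base stretch in 4 copies. The Zfp217 window held 5 cores in a repeat in which 1 stretch of 12 bases recurred 8 times. The Crybg1 repeat, with a 12-base stretch in 5 copies, and the Dmrtb1 window held none of the motifs. None of these 7 windows held a GATA site, and of all 34 members named in the text 18 held a SOX core and 1 a GATA site.

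The lists give no read totals. The background coverage that the peak caller used, solved from pairs of fold and p-value, served as depth and was 0.29 to 0.692 fragments per base in the 8 SOX2 lists, 0.865 to 1.31 in the NANOG lists, 0.928 to 1.34 in the GATA6 lists from 2 to 48 h and 1.23 and 1.55 in the SOX17 lists. In the GATA6 0 h lists (0.287 and 0.315) it rests on few peaks, and in the GATA4 lists it was not recovered. The 6 GATA6 lists at 4, 8 and 48 h carry file names of other times than their records. Lists recorded as 4 h are named 48 h, those recorded as 8 h are named 4 h, and those recorded as 48 h are named 8 h. Both 48 h titles call their libraries merged. Times follow the file name here, and values by the record are given beside the result they change.

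Members were weaker SOX2 regions by their median. Their fold enrichment over control at 0 h, the mean of the strongest peak of each list, had a median of 5.77 and lay between 4.01 and 9.46 from the 5th to the 95th percentile, with a maximum of 24.6. The median was 7.23 in regions with NANOG 0 h only, 6.34 with GATA6 2 h only and 9.43 with both. Members were also narrower, with a median width of 478 bp against 661 bp in the other SOX2 regions. These values come from the lists that chose the members and are given without a test. At the edge of the choice, 133 members (6.73%) had a NANOG 0 h or GATA6 2 h peak under 200 bp away and 374 (18.9%) under 1000 bp. The median distance to the nearest such peak was 5487 bp. On the other side, 2246 regions were removed by a peak in only 1 of the 4 NANOG and GATA6 lists. Their median SOX2 fold was 6.22, and the peak that removed them had a median fold of 4.59.

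SOX2 was found at fewer members than other SOX2 regions after induction. At 2 h, 15.5% of the members held a SOX2 peak in replicate 1 and 35.8% in replicate 2, against 60.4% and 81% of the other SOX2 regions. At 4 h, the shares of members were 32.4% and 13.2%, against 77% and 56.1%. At 8 h, 8% and 6.48% of members held a peak, against 35.2% and 31.7%. The members lay below the other regions in each of the 6 lists. The levels depended on the lists, and the alternatives given here also changed which regions were members. With all lists cut to equal length within a factor there were 4581 members. Their mean share at 8 h was 29.1%, where that of the 1975 was 7.24%. Without SOX2 0 h replicate 2 there were 9913, with 2.39% at 8 h. At 2 h these had 9.99%, where the 1975 had 25.7%. Without SOX2 0 h replicate 1 there were 6656, with 2.88% at 8 h.

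The mean share over these 6 lists was 18.6% in members and 56.9% in the other regions, a difference of -38.3 percentage points ± 9.42 (SD, n = 6 lists, range -45.2 to -25.3). The two-sided exact sign-flip permutation test over lists gave p = 0.0312, the smallest that 6 lists allow, and 0.0703 after Benjamini-Hochberg adjustment over the 9 tests made, which does not pass 0.05. By reproducible peaks, 205 members (10.4%) held SOX2 in both lists at 2 h, where 51.6% of all 17262 SOX2 regions did. At 4 h the count was 184 (9.32%) against 48.0% of all regions, and at 8 h it was 62 (3.14%) against 21.2%. The replicates of 2 and 4 h differed widely, and the higher share came in each case from the list with more peaks. These were 2 h replicate 2 with 52574 peaks at a coverage of 0.692 and 4 h replicate 1 with 45340 peaks at 0.514, where their partners had 24073 peaks at 0.448 and 24617 at 0.409. The part of depth in these shares was not tested. Across 2, 4 and 8 h the mean share of members was 25.7% ± 14.3, 22.8% ± 13.6 and 7.24% ± 1.07 (SD, n = 2 lists each). An exact permutation test of F over the 3 times gave p = 0.267 (adjusted p = 0.3), and 6 lists allow no p below 0.0667.

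**Figure D1:**
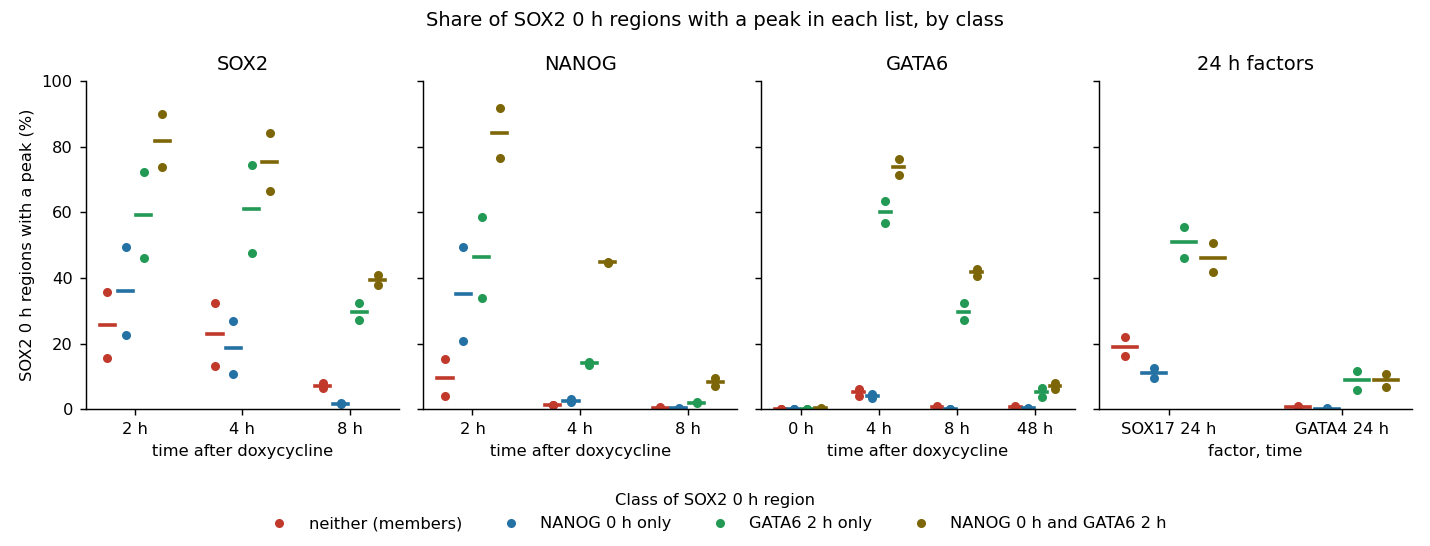
Percent of SOX2 0 h regions that held a peak (y axis) in each list of SOX2, NANOG and GATA6 by time and of SOX17 and GATA4 at 24 h (x axis). Points are the 2 lists of a group, short lines their mean, and colours the 4 classes of regions. Members (red) lie below both classes with GATA6 2 h in every list after induction, and at 8 h of SOX2 lie at 8% and 6.48%, above the regions with NANOG 0 h only at 2% and 1.5%.

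The mean SOX2 share of members over the 6 later lists, 18.6%, stood beside 18.8% in regions with NANOG 0 h only and 50% in regions with GATA6 2 h only. Against GATA6 2 h only, SOX2 retention was lower in members in all 6 lists, by a mean difference of -31.5 percentage points ± 7.92 (SD, n = 6; exact permutation p = 0.0312, adjusted p = 0.0703). Against NANOG 0 h only, the mean difference was -0.258 ± 8.12 (exact permutation p = 0.969, adjusted p = 0.969), with list differences from -13.5 to 6 points. That interval of lists holds both signs, so it does not show that both classes behave alike. By time, the difference of members from NANOG 0 h only was -10.3 points ± 4.47 (SD, n = 2 lists) at 2 h. It was 4.03 ± 2.2 at 4 h, and 8 h gave 5.49 ± 0.721, so members lay lower in both lists at 2 h and higher in all 4 lists at 4 and 8 h. The change of this difference with time was not tested. Regions over 1 kb from a TSS gave 13.8% and 33.6% of members against 22.4% and 49.1% of NANOG-only regions at 2 h, and 4.54% and 3.81% against 1.82% and 1.32% at 8 h. At 4 h these distal shares were 26.9% and 10.5% of members against 26.1% and 10.5%.

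Members also held SOX2 less often than regions with GATA6 when regions of like strength at 0 h were compared. When all SOX2 regions were put into 5 equal bins by SOX2 0 h fold, 845 members fell into the weakest bin (fold 3.06 to 5.52) and 33 into the strongest (11.6 to 78.8). In the weakest bin, a SOX2 peak at 4 h was held by 17.9% ± 12.4 of members, 48.5% ± 21.4 of GATA6-only regions and 51.4% ± 18.3 of regions with both factors (SD, n = 2 lists). At 8 h these were 5.62% ± 0.418, 18.7% ± 3.66 and 19.9% ± 2.21. In the strongest bin at 8 h they were 18.2% ± 4.29, 58.6% ± 1.53 and 55.9% ± 0.747. Averaged within bins, the difference from the other regions was -27.0 points and from GATA6 2 h only -27.9 points (both exact permutation p = 0.0312). Against NANOG 0 h only it turned to 5.01 points (exact permutation p = 0.0938).

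**Figure D2:**
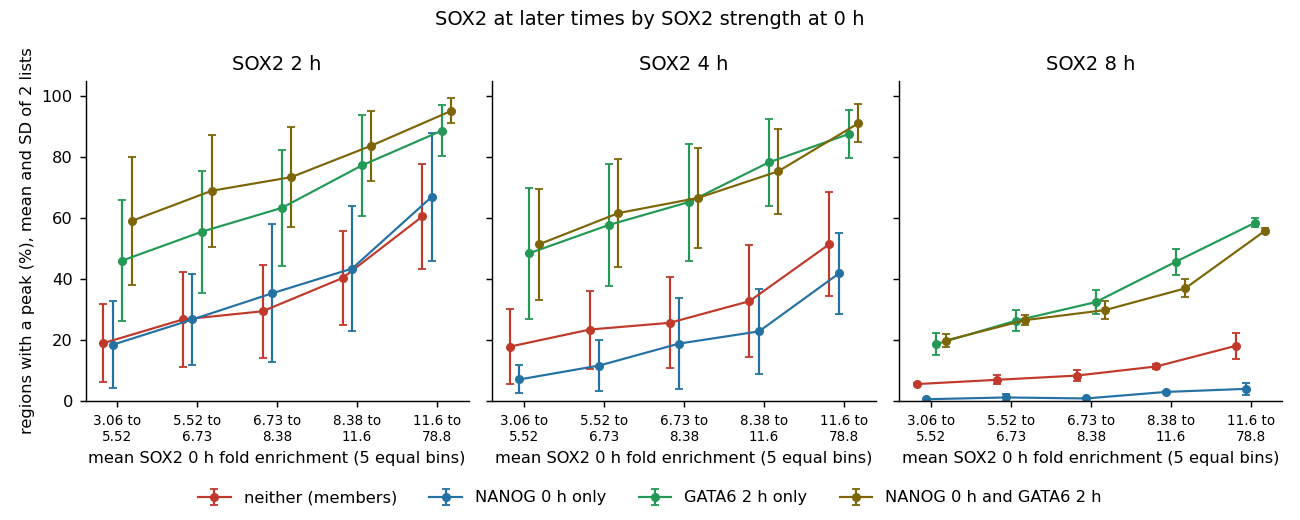
Share of regions with a SOX2 peak at 2, 4 and 8 h (y axis, percent, mean and SD of 2 lists) in 5 equal bins of mean SOX2 0 h fold enrichment (x axis) for the 4 classes. Members and regions with NANOG 0 h only have lower means than the other 2 classes in every bin, and at 8 h members lie above NANOG only, at 5.62% against 0.649% in the weakest bin.

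Members differed in how many of the 6 later SOX2 lists they entered. No later list held 874 members (44.3%), where 8.77% of the other regions were in none. Exactly 1 list held 535 members, 2 lists 264, 3 lists 162, 4 lists 81 and 5 lists 28. All 6 lists held 31 members (1.57%), against 20.4% of the other regions. Members with a SOX2 peak in more lists lay closer to genes. Of the 874 in none, 8.01% lay within 1 kb of a TSS, and of the 31 in all 6 lists 67.7% did. A peak of SOX17 in both lists was held by 5.72% of the former and 54.8% of the latter. The share with a SOX core was between 46.3% and 50.8% for 0 to 4 lists, and it was 39.3% of the 28 members in 5 lists and 29% of the 31 in all 6. Median SOX2 0 h fold was 5.5 and 7.85, so strength moved with these counts, and its part was not tested.

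**Figure D3:**
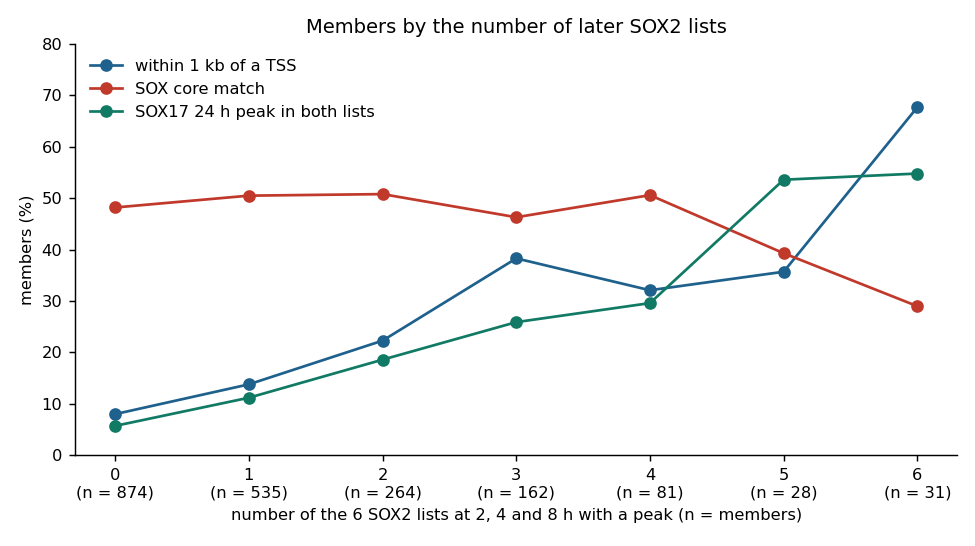
Members grouped by the number of the 6 SOX2 lists at 2, 4 and 8 h that hold a peak (x axis, number of members in brackets) and the percent of each group (y axis) within 1 kb of a TSS, with a SOX core and with SOX17 in both lists. The share near a TSS goes from 8.01% to 67.7% and SOX17 from 5.72% to 54.8%, while the SOX core stays between 46.3% and 50.8% for 0 to 4 lists and is at 29% for all 6.

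By position, 44.7% of member summits were intergenic, 42.8% intronic, 6.18% in a UTR exon and 6.38% in another exon (GENCODE vM21). Within 1 kb of a TSS lay 322 members (16.3%), against 1.3% of regions with NANOG 0 h only, 30.2% with GATA6 2 h only and 11% with both. The 322 promoter members had a median GC content of 57.7% and SOX core matches in 28.3%. The 1653 others had 48.3% GC and SOX core matches in 52.6%. Promoter members held SOX2 at 8 h in 25.8% and 20.2% of cases in the 2 lists, distal ones in 4.54% and 3.81%. Among the other SOX2 regions the same split was 51% and 43.6% near a TSS and 31.9% and 29.3% away from it, so the order was shared but the levels were higher. Repeats of a 12-base stretch in 3 or more copies were found in 87 members (4.41%) and in 3.31% of the other regions.

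The sequence at the summit of members held SOX cores but few GATA sites. Within 100 bp of the summit, 48.7% of members held ACAATG or ACAAAG on either strand, against 28% in equal windows 1000 bp away (median GC 49.3% and 45.3%). RefSeq promoter windows, taken as the first 201 bp of each promoter sequence, held it in 21.4%. The share was 54.9% in regions with NANOG 0 h only, 37.4% with GATA6 2 h only and 47.4% with both. The octamer ATGCAAA was in 6.73% of members and 4.1% of their flanks, and 11.1% of the NANOG-only regions. The SOX core read as CATTGT or CTTTGT, followed after 1 base by ATGC as in composite elements, was in 21 members (1.06%) and in 0.152% of flanks. This word contains a SOX core and so overlaps that motif. A GATA site was in 14.8% of members, fewer than in their flanks (32.2%) and in promoter windows (23.2%). The shares at the summit were 15.6% with NANOG 0 h only, 22.5% with GATA6 2 h only and 29.5% with both. Their flanks held 33.9%, 30.2% and 32.7%, so summits lay below flanks in every class. The classes without GATA6 at 2 h had the lowest shares at the summit.

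Of the other words searched on both strands, the KLF word (GGGCGTGG or GGGTGTGG) was in 7.85% of members and 2.73% of flanks, and in 5.68% of promoter windows. The AP-1 word (TGANTCA) was in 2.68% of members and 5.32% of flanks, against 7.95% at summits of regions with both factors. The ESRRB word (TCAAGGTCA) was in 1.27% and 0.608% of flanks. The TEAD word (GGAATG) was in 13.1% and 9.92%, and the CTCF core (AGAGGGC or AGATGGC, and likewise AGGGGGC or AGGTGGC) in 16.3% and 13.1%. Promoter windows held these in 5.6% (AP-1), 0.323% (ESRRB), 10.7% (TEAD) and 18.7% (CTCF) of cases, the octamer in 3.47% and the composite in 0.155%. In the other SOX2 regions, summits and flanks held the KLF word in 7.68% and 2.53%, and ESRRB in 1.52% and 0.608%. TEAD was in 16.2% and 10.4% there, and CTCF in 15.4% and 13.5%. For these words, summits thus exceeded flanks in the other regions as well as in members. AP-1 was in 7.09% and 5.95%, an order opposite to that in members. A match is only a description of the letters, and regions are not replicates, so no test was made.

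**Figure D4:**
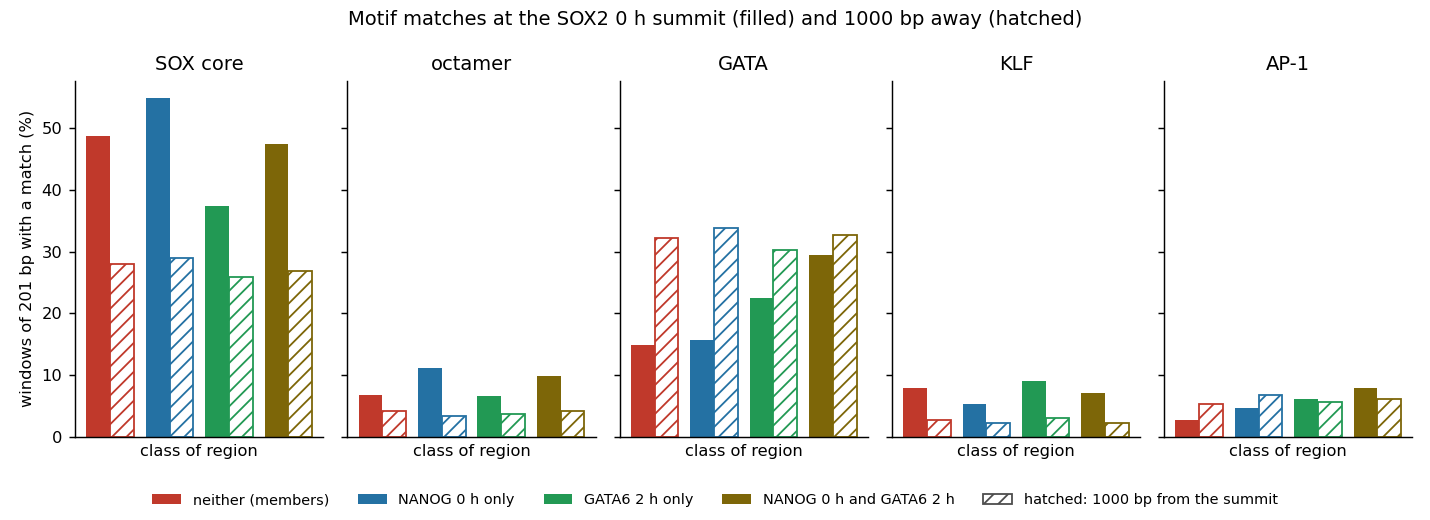
Percent of 201-bp windows (y axis) with a match to 5 motifs at the SOX2 0 h summit (filled bars) and 1000 bp away (hatched bars) for the 4 classes of regions. In members the SOX core stands at 48.7% against 28% in flanks, and the GATA site at 14.8% against 32.2%. In every class the SOX core is more frequent at summits than in flanks, and the GATA site less frequent.

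NANOG was rarely found at members after induction. A NANOG peak at 2 h was held by 15.4% and 3.9% of members in the 2 lists, against 77.1% and 57.5% of the other SOX2 regions. At 4 h the shares were 1.42% and 1.32% against 30.8% and 31%, and at 8 h 0.709% and 0.152% against 6.2% and 4.81%. Of the other regions, 64% held NANOG at 0 h, which defines their class. In regions with GATA6 2 h only, which like the members lacked it, NANOG 2 h peaks were at 58.5% and 34%. Members were lower than the other regions in all 6 lists, by a mean of -30.7 points ± 23.6 (SD, n = 6; exact permutation p = 0.0312, adjusted p = 0.0703). The differences were -61.6 and -53.6 points at 2 h and -5.49 and -4.66 at 8 h, so this SD holds the change with time. The choice by NANOG at 0 h favours a lower share in members, and the test cannot separate that from later binding. Both NANOG 2 h lists agreed on 34 members (1.72%), where 47.9% of all SOX2 regions held both. At 4 h 2 members (0.101%) did against 18.9%, and at 8 h 0 against 1.74%. Of the 34 members, 24 also held a SOX2 peak at 2 h in at least 1 list, as did 41% of all members and 79.5% of all SOX2 regions. With lists of equal length, which gave 4581 members, the mean NANOG 2 h share was 1.16%, where that of the 1975 members was 9.67%. The longer NANOG 2 h list, replicate 1 with 52285 peaks, gave the higher share, where replicate 2 had 26742 peaks. Over 2, 4 and 8 h the test of F gave an exact permutation p of 0.0667 (adjusted p = 0.1), the smallest that 6 lists allow.

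The 3 members with the highest NANOG 2 h fold among those 34 lay near Id4, an inhibitor of bHLH factors, Wwp2, a ubiquitin ligase, and Kcnf1, a potassium channel subunit. The Id4 region (chr13:48130657-48131049, 130416 bp upstream) had NANOG folds of 8.66 and 7.84 at 2 h and none at 4 or 8 h. The Wwp2 region (chr8:107519881-107520122, intronic) had 8.64 and 6.75. The Kcnf1 region (chr12:17193248-17193649, intergenic) had 7.41 and 7.73 at 2 h and was still listed at 4 h with 5.67 and 4.15. It was also in all 6 later SOX2 lists. SOX2 folds at 0 h were 4.94 and 10.1 at Id4, 4.94 and 7.62 at Wwp2, and 14.5 and 10.5 at Kcnf1. All 3 regions were thus held by SOX2 and NANOG at 2 h, each of them in the SOX2 replicate 2 list.

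GATA6 at later times was found at few members. GATA6 at 0 h, before induction, gave peaks in 0% and 0.0506% of members. At 4 h by the file name, 4.05% and 6.23% of members held a GATA6 peak, against 61.7% and 67% of the other SOX2 regions. At 8 h the shares were 0.506% and 0.861% against 33.1% and 36.3%, and at 48 h 0.354% and 0.911% against 4.93% and 7.03%. Members lay lower than the other regions in all 6 lists, by a mean of -32.9 points ± 24.1 (SD, n = 6; exact permutation p = 0.0312, adjusted p = 0.0703). The differences were -57.7 and -60.7 points at 4 h and -4.58 and -6.12 at 48 h, so this SD holds the change with time. Of these other regions, 93.5% held GATA6 at 2 h, which defines their class. The choice of members thus favours a lower share in them, and the test cannot separate that from later binding. Regions with NANOG 0 h only, like the members, lacked GATA6 at 2 h. They held fewer GATA6 peaks than members in all 6 lists. Their shares were 3.3% and 4.8% at 4 h, 0.2% and 0.0999% at 8 h, and 0.2% and 0.4% at 48 h. At 8 and 48 h these rest on 1 to 4 regions a list. Members 1 kb or more from a TSS held GATA6 at 4 h in 3.57% and 4.78%, near the NANOG-only shares. Members within 1 kb of a TSS held it in 6.52% and 13.7%, but only 1.3% of NANOG-only regions lay there. None of these differences was tested. The mean share of members at 4 h was 5.14%. It was 1.21% in the 4581 members from lists of equal length and 14.4% in the 3369 without GATA6 2 h replicate 1. Both lists agreed on 17 members at 4 h (0.861%, with 49.4% of all SOX2 regions), on 2 at 8 h (0.101%, with 24.8%) and on 4 at 48 h (0.203%, with 3.27%). None of the 17 held a GATA site within 100 bp of the SOX2 summit, where 14.8% of all members did, a difference too small to read in 17 regions. Across 0, 4, 8 and 48 h the shares of members gave an exact permutation p of 0.0476 by F (adjusted p = 0.0857). By the record, the same lists would stand at 8, 48 and 4 h, and the difference of 48 h minus 4 h would be 0.0506 points in place of -4.51.

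At 4 h the named members with GATA6 in both lists lay near Gm37240, Hmgb3, a high-mobility-group chromatin protein, and Hoxb4, a homeobox factor. Gm37240 (chr3:85887328-85887806) and Hmgb3 (chrX:71555691-71556177) lay 62 and 20 bp upstream of a TSS, in windows with 20 and 18 CpG. GATA6 folds at 4 h were 6.16 and 6.12 for Gm37240, 6.16 and 5.7 for Hmgb3, and 4.97 and 6.12 for Hoxb4 (chr11:96311798-96312078). At 8 h both lists held a peak at Rps26, a ribosomal protein gene (chr10:128626514-128627108, UTR exon), with folds of 4.69 and 3.19, and at Cntnap5b (chr1:100180117-100180351, intronic), with 3.71 and 3.03. At 48 h both lists held a peak at Cntnap5b, with 6.74 and 3.84, and near Igfbp7 (chr5:77666733-77667701, intergenic), with 4.27 and 4.93. The Cntnap5b region was in all 6 later SOX2 lists, in 5 of the 6 later GATA6 lists, and was 1 of 2 members with GATA4 in both lists and it held no NANOG peak. Peaks of SOX2, GATA6, GATA4 and, in 1 list, SOX17 thus lay on the same 235 bp. The peaks at 0 h in the SOX2 lists there were weak, at 4.27 and 5.79. The other member with GATA4 in both lists lay 107 bp upstream of Med9, which encodes a Mediator subunit (chr11:59947901-59948160), with GATA4 folds of 6.12 and 5.88 and SOX2 folds at 0 h of 5.82 and 3.97.

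Of the PrE factors mapped at 24 h, SOX17 was found at more members than GATA4. The same order held over all SOX2 regions, with mean shares of 42.6% and 7.36%. The SOX17 lists were longer, with 27328 and 41979 peaks against 8427 and 4006 for GATA4. The part of list length in this order was not tested. A SOX17 peak was held by 16.3% and 21.9% of members, against 41.2% and 50% of the other SOX2 regions. Both lists agreed on 257 members (13%, with 35.3% of all SOX2 regions). GATA4 peaks were at 1.01% and 0.253% of members, against 10.5% and 5.97%, and both lists agreed on 2 members (0.101%, with 4.23%). Over the 4 lists of both factors the mean difference was -17.1 points ± 11.1 (SD, n = 4; exact permutation p = 0.125, the smallest that 4 lists allow, adjusted p = 0.161). The differences were -25.0 and -28.1 points for SOX17 and -9.47 and -5.72 for GATA4, so this SD holds the contrast of the factors. The mean SOX17 share of members was 19.1%. It was 42.9% in the 4581 members from lists of equal length. Without SOX2 0 h replicate 2 and 1 it was 9.18% and 11%, in 9913 and 6656 members. Regions with NANOG 0 h only held SOX17 in 9.59% and 12.6%. Away from promoters members held SOX17 in 13.7% and 18.7% and NANOG-only regions in 9.21% and 12.1%.

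The 257 members with SOX17 in both lists were more often near a TSS (28.8%) than the other members (14.4%), held a SOX core in 56% against 47.6%, and had SOX2 in a mean of 2.17 of the 6 later lists against 0.956. The link to a TSS was shared with the other SOX2 regions. Of those, 69.4% and 78.8% within 1 kb of a TSS held SOX17 in the 2 lists, against 35.3% and 43.9% away from it. Near a TSS, SOX17 in both lists was at 37.4% of the 91 promoter members with a SOX core and 17.3% of the 231 without one. Of the 257, 50 had no later SOX2 peak. Members with high SOX17 folds lay in introns of Slc44a5, a choline transporter-like gene, and Galnt2, an enzyme of O-glycosylation. SOX17 folds were 47.2 and 65.2 at Slc44a5 (chr3:154071347-154072505, 98714 bp downstream of the TSS) and 28.7 and 33.4 at Galnt2 (chr8:124284171-124284699). Their 201-bp windows held 3 SOX cores, in the repeat at Slc44a5, and 1 at Galnt2. At Slc44a5 the SOX2 fold at 0 h was 24.6 in both lists, the highest mean among members.

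The 6 members with the strongest SOX2 at 0 h lay near Slc44a5, Fbxl18, an F-box gene, Sox13, a SOX factor, Dmrtb1, a DM-domain factor, Hnmt, the histamine methyltransferase, and Tmem135. Fbxl18 (chr5:142881066-142881725, intronic) had SOX2 folds of 20.1 and 20.8 at 0 h, then 8.53 and 5.55 at 2 h and 9.2 in 1 list at 4 h. Sox13 (chr1:133411626-133412204, intronic) had 19.1 and 17.7, then 5.15 in 1 list at 4 h. Dmrtb1 (chr4:107733402-107734390, intron of 1700047F07Rik, a lincRNA) had 21 and 14.9, and no peak of any factor in any other list. Hnmt (chr2:23998673-23999494, intergenic) had 15.5 and 17.8 and Tmem135 (chr7:89322513-89323428, intronic) 14 and 18.3. Both were listed for SOX2 in 1 list at 2 h and 1 at 4 h. None of the 6 had a SOX2 peak at 8 h, a count that says little, since 11.3% of all members held one in either list and the mean share per list was 18.2% in the strongest bin.

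The members in all 6 later SOX2 lists with the highest later folds lay near Zfp217, a zinc-finger gene, Josd2, a deubiquitinase, Mapre3, a microtubule end-binding protein, Kcnf1, Tmem140 and Crybg1. Zfp217 (chr2:170257845-170258336, 115335 bp upstream, intergenic) had SOX2 folds of 13 and 12.6 at 0 h, 16 and 8.64 at 2 h, 33.9 and 17.5 at 4 h, and 8.25 and 11.1 at 8 h. Its 201-bp window was 95.5% soft-masked repeat. Josd2 (chr7:44467787-44468494, 29 bp downstream of the TSS, UTR exon) had 18.4 and 7.8 at 0 h, and 14 and 15.6 at 8 h, in a window with 21 CpG. Mapre3 (chr5:30814248-30814787, 151 bp upstream) had 9.77 and 7.9 at 0 h and 17.1 and 12.4 at 8 h, and Tmem140 (chr6:34866627-34867364) 9.6 and 10.7 at 0 h and 11.2 and 10.3 at 8 h. Crybg1 (chr10:43993159-43993744, intronic) had 7.77 and 17.1 at 0 h and 4.46 and 5.57 at 8 h. These folds are each relative to the local background of their own list, so they rank peaks within a list and do not measure occupancy across lists.

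Few members lay near the lineage genes examined. Within 50 kb of a nearest protein-coding TSS lay 1340 members, 11.2% of all SOX2 regions so placed. For naive pluripotency genes this was 4 of 86 regions (4.65%), for FGF and ERK signalling 2 of 37 (5.41%), for chromatin regulators 2 of 31 (6.45%), and for formative and primed epiblast 4 of 26 (15.4%). With 2 to 4 members a list these shares are a description only. Of these 12 members, 8 were in no later SOX2 list, 3 in 1 and 1 in 2, and 4 held SOX17 in both lists. Over all members, 44.3% were in no later SOX2 list and 13% held SOX17 in both lists.

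Among pluripotency genes, the members lay near Lefty2, an inhibitor of NODAL, Gbx2, Sall4 and Prdm14, which encode transcription factors of naive cells. Their SOX2 folds at 0 h were 5.41 and 5.82 (Lefty2, chr1:180894249-180894872, exonic), 4.81 and 6.16 (Gbx2, chr1:89939255-89939708), 5.78 and 4.69 (Sall4, chr2:168791048-168791530) and 3.53 and 5.08 (Prdm14, chr1:13080809-13081433). None was in a later SOX2 list, and Lefty2, Sall4 and Prdm14 held SOX17 in both lists, with the highest folds at Sall4, 18.9 and 24.6. Epiblast genes with a member were Fgf8, Fgf15, both FGF ligands, Lef1, a WNT effector, and Cdh2, which encodes N-cadherin. Fgf8 (chr19:45731297-45732097) had SOX2 folds of 9.8 and 6.72 at 0 h and 4.54 in 1 list at 2 h, and no NANOG, GATA6, GATA4 or SOX17 peak. Lef1 (chr3:131105743-131106424) had 5.88 and 8.81, and no peak in any other list.

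In FGF signalling, members lay in introns of Fgfr1, a receptor (chr8:25547853-25548415, SOX2 folds 4.79 and 7.96), and Etv5, an ETS factor downstream of it (chr16:22401020-22401845, 6.27 and 4.98). Both were in 1 GATA6 list at 4 h, with folds of 4.95 and 6.86. Etv5 also held SOX17 in both lists, with 7.03 and 6.12, and Fgfr1 a NANOG peak in 1 list at 4 h, with 3.69. Members near chromatin regulators lay in introns of Ezh2, the methyltransferase of Polycomb complex PRC2 (chr6:47594137-47594490, 653 bp downstream of the TSS, 22 CpG in the window), and Chd7, a remodeller (chr4:8834306-8834693). Of all 1975 members, 1148 (58.1%) overlapped no NANOG, GATA6, GATA4 or SOX17 peak of any list. Among all members, 603 (30.5%) had neither such a peak nor a later SOX2 peak. Every other SOX2 region held NANOG at 0 h or GATA6 at 2 h by its class. These counts therefore have no counterpart there and only describe the members chosen.

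**Figure D5:**
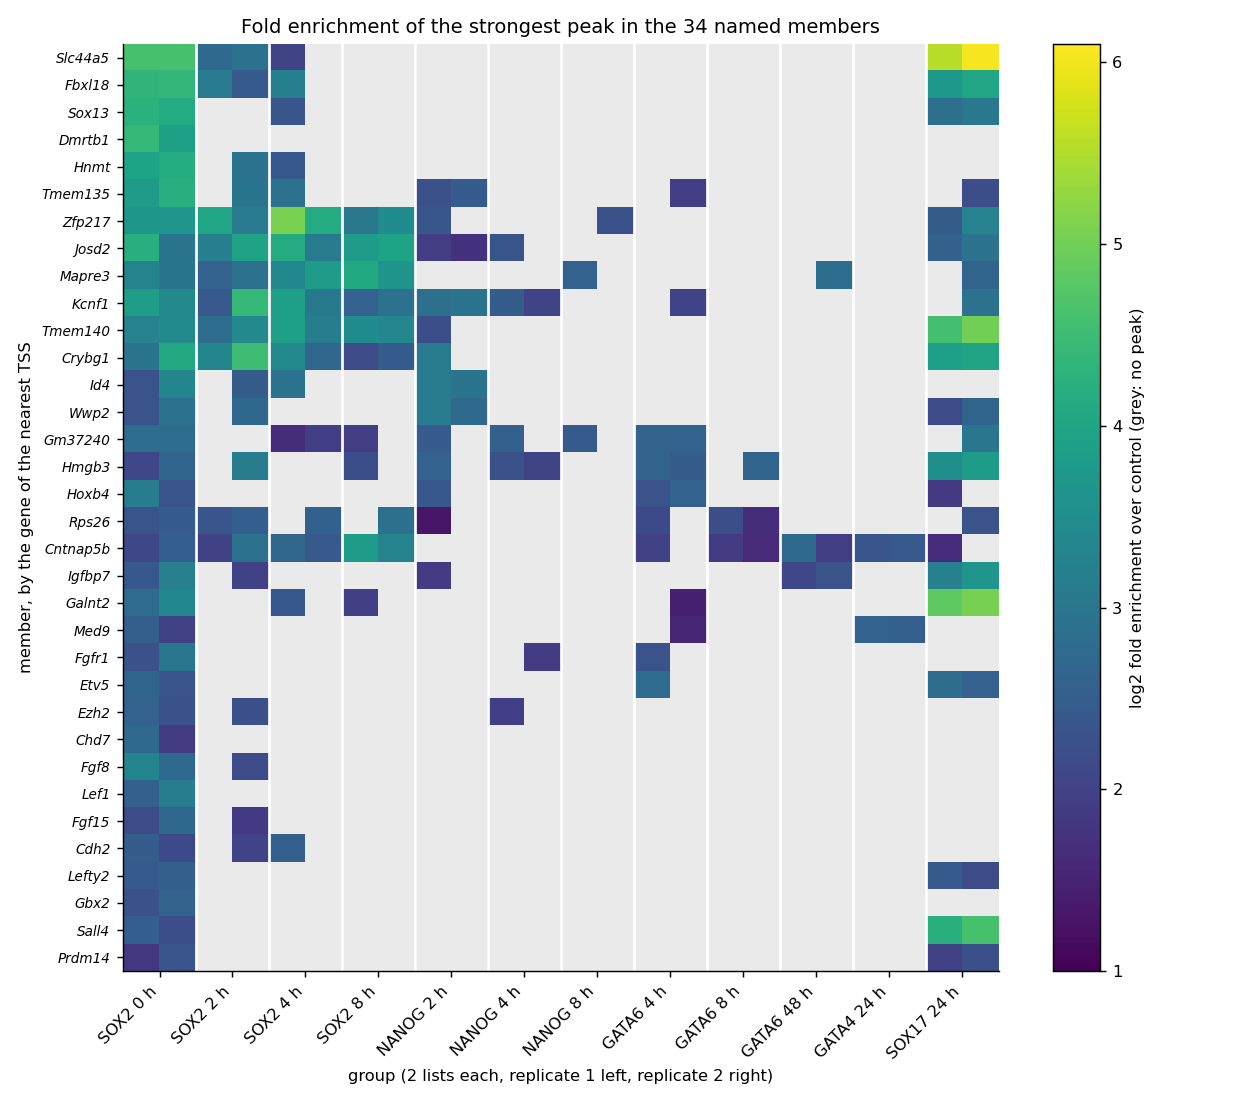
Log2 fold enrichment over control (colour, grey for no peak) of the strongest peak in the 34 named members (y axis, by nearest gene) for 24 lists in 12 groups (x axis, 2 lists each). SOX2 0 h is filled in all by the choice of members, the 6 members from Zfp217 to Crybg1 are filled in all SOX2 groups, and SOX17 stands at its highest at Slc44a5 (47.2 and 65.2 on the linear scale).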

How the data were processed

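The analysis used 30 CUT&RUN peak lists of SOX2, NANOG, GATA6, SOX17 and GATA4, 2 per group, and 27 of 57 samples (histone marks, a control antibody and embryos) were not analysed here. Per the labels and the study's methods, the authors aligned reads to mm10 (GRCm38) with Bowtie2, processed them with SAMtools and Picard, removed blacklisted reads, kept duplicates and called narrow peaks with MACS in each library against a control library. The only control antibody library among the samples is assigned to 48 h. The deposited columns are the peak position, a score (a rescaled q-value, not used), the fold enrichment as a ratio of pileup to local background, the −log10 p-value and −log10 q-value, and another column gives the summit offset. Every deposited peak has q of at most 0.05.

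Members were found by overlap of 1 bp, and a list's share is the percent of regions of a class with a peak in it. The list was the sample. Classes were compared by two-sided exact sign-flip permutation tests over lists, and times by exact permutation of F, with Benjamini-Hochberg adjustment over 9 tests. Depth was recovered from pairs of fold and p-value. Motifs were searched on both strands of 201-bp windows, and 9 motifs were used. Genes are the nearest protein-coding TSS of GENCODE vM21, and sequence is GRCm38 from RefSeq, as are the promoter windows. These windows were the first 201 bp of each promoter sequence. No peak lay outside the chromosomes of that build. Python 3.11.15, NumPy 2.4.6, pandas 2.3.3, SciPy 1.17.1 and pysam 0.24.0 were used. The scripts were tested on simulated data.

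The named members were the 6 with the highest mean SOX2 0 h fold, the 6 with the highest later fold among those in all 6 later SOX2 lists, up to 3 per later group with the highest fold among those with a peak in both lists (NANOG 2 h, GATA6 4, 8 and 48 h, SOX17 and GATA4), and every member within 50 kb of a gene of 6 lists where that gene was the nearest. Of the members so chosen, 2 are not reported here, nor are 2 of the lists. The members and gene lists were chosen with earlier results of these data known. Alternatives were a stricter q, equal list lengths, summits in place of overlap, other exclusion rules, bins of strength, GATA6 times by the record, a replicate block and leaving out each list. The restriction to regions over 1 kb from a TSS was chosen after seeing the data.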

Additional observations from a re-analysis of the deposited data

How the results depend on the processing

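The number of members depended on the lists that define them. It was 1975, and 4581 with lists cut to equal length within a factor, 4795 when only NANOG and GATA6 peaks present in both lists excluded a region, and 2092 to 9913 when 1 list was left out (9913 without SOX2 0 h replicate 2, 6656 without SOX2 0 h replicate 1 and 3369 without GATA6 2 h replicate 1). Differences of members from the other regions kept their sign under every alternative run. Leaving out 1 list gave -41.0 to -34.7 points for SOX2, -35.9 to -24.6 for NANOG, -38.5 to -27.3 for GATA6, -20.8 to -13.4 for SOX17 and GATA4, and -34.4 to -29.3 for SOX2 against GATA6 2 h only. The other alternatives ranged from -40.1 to -27.0 points for SOX2, -31.7 to -22.5 for NANOG, -35.3 to -21.4 for GATA6 and -17.1 to -8.5 for SOX17 and GATA4, and from -45.1 to -27.9 for SOX2 against GATA6 2 h only. The difference of SOX2 from regions with NANOG 0 h only was -12.0 with lists of equal length (exact permutation p = 0.125), turned to 5.01 within 5 bins of strength (exact permutation p = 0.0938, adjusted p = 0.121) and ranged from -8.33 to 2.38 when 1 list was left out (2.38 without SOX2 2 h replicate 2 and 1.12 without SOX2 2 h replicate 1). With lists of equal length, the change over time, the mean share of members at the last time minus that at the first after induction, turned to 0.578 points for NANOG (exact permutation p = 0.0667) and 1.43 for GATA6 (exact permutation p = 0.00952, adjusted p = 0.0563), and by the record of the GATA6 files it was 0.0506. The cause of these turns was not tested. Leaving out 1 list gave -28.6 to -7.6 for the SOX2 change, -15.6 to -3.47 for NANOG and -13.7 to -2.82 for GATA6. The SOX2 change was -28.6 and -8.3 without SOX2 2 h replicate 1 and 2 and -7.6 without SOX2 0 h replicate 2, the NANOG change -3.47 and -15.0 without NANOG 2 h replicate 1 and 2, and the GATA6 change -13.7 without GATA6 2 h replicate 1 and -2.82 without SOX2 0 h replicate 2. Replicate numbers did not pair the lists (r between -0.08 and 0.02 over 9 pairs of groups). With a replicate block, the changes of -18.4, -9.24 and -4.51 points had exact permutation p = 0.5 (SOX2), 0.167 (NANOG) and 0.0833 (GATA6). Depth limits the absence of a peak, since a weak site can be missed in a short list.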
